A study of Mus musculus with 9 samples.

Results

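A set of 283 genes was expressed in the heart before birth, was low on the first postnatal day and was expressed again at the end of the first postnatal week. These genes, called dip genes here, were chosen by their values. The mean had to be at least 3 FPKM (fragments scaled to transcript length and sequencing depth) both at E18.5d and at P7d, each of these means had to be at least 1.6 times the mean at P1d, and the highest P1d heart had to lie below the lowest of the other 6 hearts. Rows without a usable symbol were left out. Of 48820 rows in the table, 23099 carried such a symbol, 9850 of these had means of at least 3 FPKM at E18.5d and P7d, and 2.87% of those 9850 met the rule. Since the rule used the P1d values, the ratios to P1d below describe the set and were not tested. The P7d hearts were compared with the E18.5d hearts by limma, a contrast the rule did not set directly, although it required both stages to exceed P1d.

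The data came from RNA sequencing of 9 whole hearts of untreated wild-type C57BL/6J mice. There were 3 hearts from embryos at E18.5d (day 18.5 of gestation), 3 from newborns at P1d (postnatal day 1) and 3 from pups at P7d (postnatal day 7), numbered as biological replicates. The labels named the animals male, but *Xist*, the RNA of the inactive X chromosome, was at 82.57 and 97.03 FPKM in E18.5d replicates 1 and 3 and at 58.03 and 69.96 FPKM in P7d replicates 2 and 3, where 4 Y-linked genes were listed at 0. In the remaining 5 hearts, which include every P1d heart, *Xist* was at 0.02 to 0.11 FPKM, so sex and stage were partly confounded. With these 5 hearts alone the rule gave 250 genes, of which 214 were among the 283.

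Dividing cells copy their DNA in S phase and part the copies in mitosis. The E2F transcription factors switch on the genes for replication and nucleotide supply at the G1/S transition, and binding by proteins of the retinoblastoma family holds them off. Histone mRNAs of the replication-dependent kind rise with DNA synthesis and end in a conserved stem-loop in place of a poly(A) tail. Genes for mitosis are switched on later, often through a CCAAT box together with a short element called the cell cycle homology region (CHR). In the mouse heart many cardiomyocytes divide before birth, pass through a last round of DNA synthesis in the first days of life, often without cytokinesis, and then leave the cell cycle.

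Stretches of promoter are shown first because 38 of the 229 dip genes with a RefSeq promoter (16.6%) held an E2F word within 250 bases before to 50 bases after the gene start, against 5.14% of all genes at the same level and 2.6% of the 27025 genes of the promoter table. The words searched were TTTGGCGC, TTTCCCGC, TTTCGCGC and TTTGCCGC on both strands. Neighbouring words may overlap, as they do in the first run of *Mycn* and in *Mcm5*. Each line gives 60 bases of GRCm38.p6, read 5′ to 3′ on the gene's strand and ending before the gene start of RefSeq, with the words in capitals. In GENCODE M21 *Cdc6* and *Uhrf1* start further upstream, so that their stretches lie within the gene but in no annotated exon. The genes are those with the largest dips among the replication, nucleotide supply, chromatin and G1/S members with a word in such a stretch clear of annotated exons.
*Cdc6* (chr11:98907987-98908046, plus strand): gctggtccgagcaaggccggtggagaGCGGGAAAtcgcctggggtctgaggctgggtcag
*Mycn* (chr12:12941971-12942030, minus strand): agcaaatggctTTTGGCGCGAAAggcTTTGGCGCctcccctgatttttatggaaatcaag
*Uhrf1* (chr17:56304102-56304161, plus strand): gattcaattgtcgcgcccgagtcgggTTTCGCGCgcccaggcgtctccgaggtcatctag
*Mcm5* (chr8:75109334-75109393, plus strand): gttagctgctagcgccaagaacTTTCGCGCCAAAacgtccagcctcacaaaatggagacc
*Rbl1* (chr2:157204535-157204594, minus strand): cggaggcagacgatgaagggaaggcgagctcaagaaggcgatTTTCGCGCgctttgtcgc
*E2f7* (chr10:110745215-110745274, plus strand): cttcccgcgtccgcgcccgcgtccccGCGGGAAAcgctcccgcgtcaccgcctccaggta
*Pola1* (chrX:93632260-93632319, minus strand): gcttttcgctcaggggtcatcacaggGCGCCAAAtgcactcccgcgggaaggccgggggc
*Mcm6* (chr1:128359719-128359778, minus strand): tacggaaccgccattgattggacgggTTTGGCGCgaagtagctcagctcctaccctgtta
The word nearest the RefSeq start began 138 bases before it in *Cdc6* and *Pola1*, 168 in *Mycn*, 185 in *Uhrf1*, 149 in *Mcm5*, 18 in *Rbl1*, 198 in *E2f7* and 47 in *Mcm6*.

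The words were unevenly spread over the dip genes. An E2F word was found in 16 of 37 promoters of the replication, supply, chromatin and G1/S genes (43.2%) but in 2 of 21 promoters of mitosis genes (9.52%). The CHR word TTTGAA was most frequent in the mitosis promoters, at 17 of the 21 (81.0%) against 14.1% of all genes at this level. It was not confined to them, with 10 of 37 promoters of the replication, supply, chromatin and G1/S genes. The CHR word was also found in 45 of 171 promoters of dip genes in none of these lists (26.3%). CCAAT was present in 17 of the 21 mitosis promoters (81.0%) as well, against 43.5% of all genes at this level. A match is a string of letters and not a measured binding site.

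Many of the histone members held the stem-loop in an annotated transcript. The stem-loop with stem bases in capitals read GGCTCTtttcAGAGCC in 14 dip genes, among them *Hist1h2ab* and *Hist1h2ao*, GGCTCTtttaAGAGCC in 4, among them *Hist1h2bb* and *Hist1h3c*, and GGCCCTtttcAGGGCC in *Hist1h4f*, *Hist1h4m* and *Hist1h4n*. In all, 25 dip genes (8.83%) held a 6-base stem with a 4-base loop of this kind in a GENCODE M21 transcript, against 41 of the 9850 genes at this level (0.416%). A match was found in 24 of the 44 histone dip genes and in 14 of the 17 other histone genes at this level. Only annotated transcripts were searched, and some without a match were short, such as *Hist1h2an* (393 bases) and *Hist1h4k* (312 bases). A missing match therefore does not show that the RNA lacks the element, and the 2 shares cannot be compared.

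Before the single genes, the shape of the set is given. The median dip gene was 3.03 times higher at E18.5d than at P1d, then 2.01 times higher at P7d than at P1d, and its P7d level was 0.685 of its E18.5d level. The median FPKM over the 283 genes was 12.2 at E18.5d, 4.33 at P1d, then 8.14 at P7d. Genes of 8 cell cycle lists and the histones made up 120 of the 283. These had a deeper dip, with medians of 3.79 and 2.15 times the P1d level, than the other 163, with medians of 2.26 and 1.89. The 163 still held many cell cycle genes that were in no list. Since hearts were sequenced whole, fewer cells of a type and less RNA per cell cannot be told apart.

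**Figure D1:**
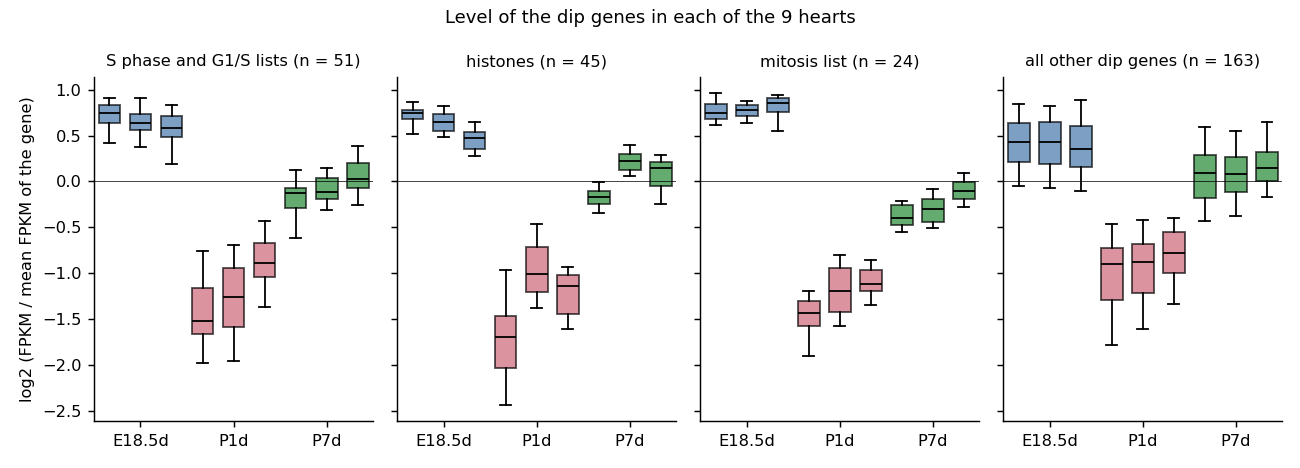
Each box gives the log2 ratio of a dip gene's FPKM in 1 heart to its mean over the 9 hearts, with the median, the quartiles and whiskers from the 5th to the 95th percentile of genes; the 3 boxes of a stage are replicates 1 to 3. In the histones the P1d medians were -1.70, -1.0 and -1.14, and in the mitosis list the P7d medians were -0.39, -0.30 and -0.10, in each P7d heart the lowest of the 4 groups.

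The members were set against gene lists chosen by function, with the same requirement of 3 FPKM at E18.5d and P7d. The lists were chosen with earlier results of these data known, so the shares describe the set and were not tested. Of the genes at this level, 24 of 46 in the mitosis list (52.2%), 7 of 14 of origin firing and replisome, 7 of 15 of origin licensing (46.7%), 7 of 15 of recombination and mismatch repair (46.7%), 12 of 33 of E2F, cyclin and G1/S control (36.4%), 9 of 25 of DNA polymerases and clamp (36%), 5 of 17 of chromatin assembly and maintenance methylation (29.4%) and 4 of 26 of deoxynucleotide and one-carbon supply (15.4%) met the rule. Histone genes had the highest share, at 44 of 61 genes with a Hist symbol (72.1%). In the shorter list of replication-dependent histones it was 10 of 18 (55.6%), nearer to the mitosis list. The share was 14.8% for angiogenic endothelium (4 of 27), 14.7% for cytoskeleton and serum response factor targets (5 of 34), 9.38% for insulin- and feeding-related metabolism (3 of 32), 5.88% for serine synthesis (1 of 17) and 2.63% for ribosome biogenesis (1 of 38), the last being below the 2.87% of all genes. Most list genes that missed the rule in the mitosis list missed it by the P7d ratio alone (18 of 22).

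**Figure D2:**
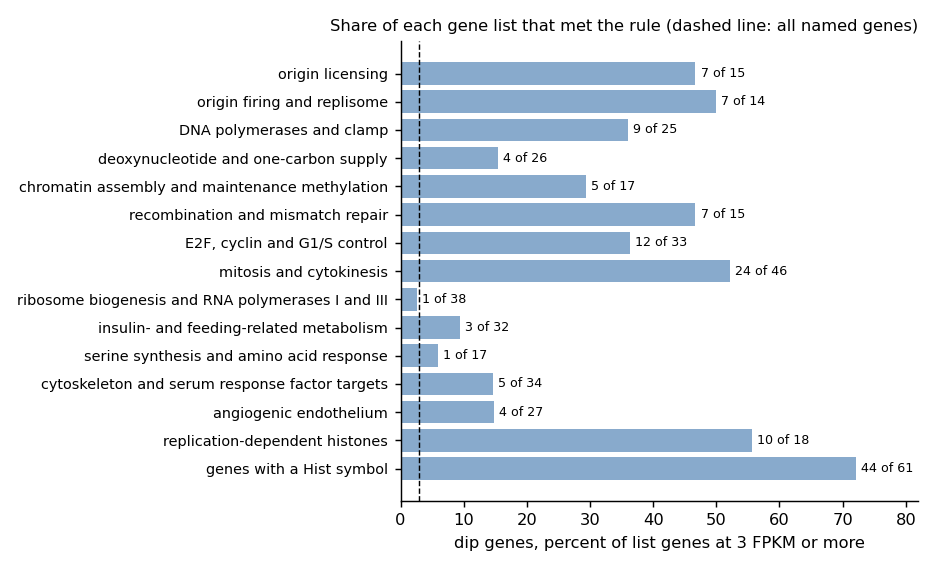
Bars give the percent of each list's genes with at least 3 FPKM at E18.5d and P7d that met the dip rule, with the counts beside them; the dashed line is 2.87%, the share among all 9850 named genes at that level. Genes with a Hist symbol reached 72.1% and ribosome biogenesis 2.63%.

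The P7d hearts were then compared with the E18.5d hearts, which asks whether the level regained at P7d was that of the fetal heart. Of the 283 dip genes, 166 were lower at P7d, 16 were higher and 101 did not pass (limma, adjusted p under 0.05). Over all 13618 genes tested, 36.9% were lower and 12.5% were higher. The median log2 change of log2(FPKM + 1) was -0.51 for the dip genes and -0.17 for all genes. In the whole cell cycle lists, members or not, most genes tested were lower too. The counts were 13 of 16 for origin licensing, 16 of 19 for origin firing and 21 of 25 for polymerases. They were 23 of 27 for supply, 16 of 18 for chromatin, 21 of 28 for recombination, 23 of 35 for G1/S and 48 of 49 for mitosis. Because the whole distribution was shifted, the split depended on the scale. After rescaling the columns by the median of ratios, where the median of all genes was -0.02 and 20.9% were lower and 21.4% higher, 118 dip genes were lower and 30 higher.

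**Figure D3:**
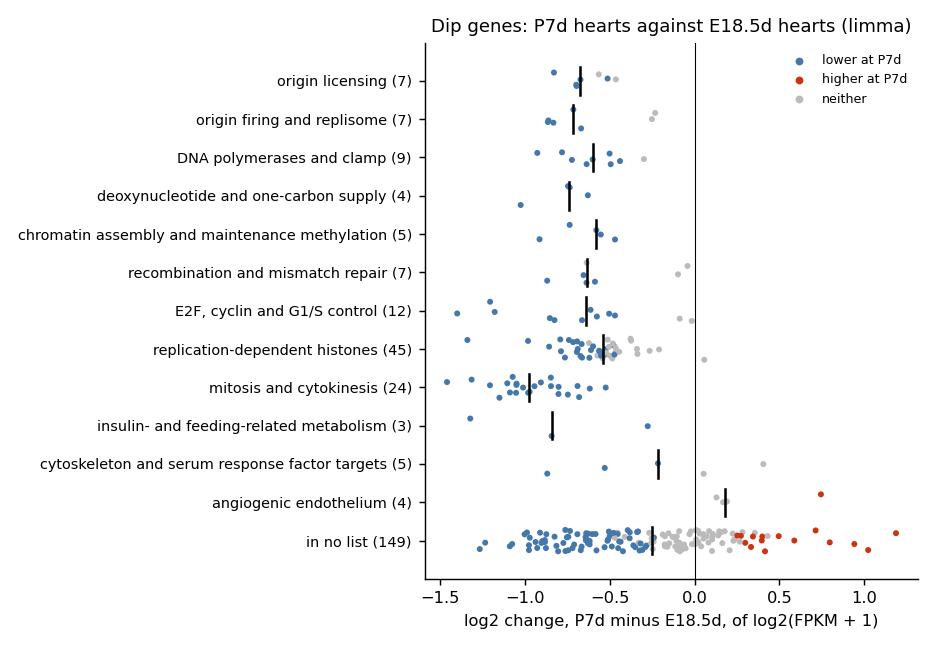
Each point is a dip gene placed at its log2 change between the P7d and E18.5d hearts, on log2(FPKM + 1), with the list in rows, the number of genes in brackets and the median as a black bar; 2 lists with 1 member each are left out. The 24 mitosis genes are all called lower, and the 4 angiogenic genes lie to the right of 0.

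The G1/S regulators open the cell cycle part. *Ccne2*, which encodes cyclin E2 and drives entry into S phase, was at 17.41, 15.21 and 16.51 FPKM at E18.5d, at 0.97, 2.30 and 1.54 FPKM at P1d, then at 4.99, 6.36 and 5.46 FPKM at P7d. Its E18.5d to P1d ratio of 10.2 was the highest of the 283 genes. *Ccne2* remained below the fetal level at P7d, with a log2 change of -1.40 (SE 0.17, limma adjusted p = 0.000146). *E2f1*, the founding E2F activator, was at 8.23, 7.48 and 7.42 FPKM, then at 1.16, 1.6 and 1.89, then at 4.01, 4.88 and 4.63. The 3 stages of *E2f1* did not overlap, and the gene was lower at P7d than before birth (log2 change -0.66, SE 0.12, limma adjusted p = 0.00137). *Mycn*, a growth-promoting transcription factor of the Myc family, was at 6.50, 6.66 and 6.85 FPKM, at 1.34, 1.39 and 1.53 FPKM and at 3.89, 4.57 and 4.81 FPKM. *Mybl2*, a transcription factor that helps to switch on late cell cycle genes, stood at 5.15 ± 0.42 FPKM (SD, n = 3) at E18.5d, 1.31 ± 0.37 at P1d, then 3.44 ± 0.31 at P7d.

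Of the 12 G1/S dip genes, 10 were lower at P7d than before birth, beside 36.9% of all genes tested. Among the 10 were *Mycn* (log2 change -0.50) and *Mybl2* (-0.47), although *Mybl2* did not pass after rescaling by the median of ratios (limma adjusted p = 0.0632). The exceptions, named here after their values were seen, were *Ccnd1*, encoding cyclin D1, and *E2f3*. *Ccnd1* was at 34.97 to 39.11 FPKM at E18.5d, 17.52 to 23.20 FPKM at P1d, then 34.30 to 39.90 FPKM at P7d, and its fetal and P7d ranges overlapped. *E2f3* met the rule through 1 heart, since P7d replicate 3 was at 10.17 FPKM while the other P7d hearts were at 4.21 and 4.77 FPKM. *Ccnd2*, encoding cyclin D2, had means of 67.5, 42.3 and 76.0 FPKM and missed the rule with an E18.5d to P1d ratio of 1.595. *Cdk4*, the kinase partner of the D cyclins, did not recover, with means of 117, 78.8 and 72.7 FPKM.

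Origin licensing loads the MCM helicase onto DNA in G1. *Cdc6*, the loader of that helicase, was at 7.95, 5.22 and 6.29 FPKM at E18.5d, at 0.76, 0.42 and 1.63 FPKM at P1d, then at 3.67, 3.50 and 3.77 FPKM at P7d. The P7d to P1d ratio was 3.89, and P7d was below E18.5d (log2 change -0.67, SE 0.21, limma adjusted p = 0.0241). *Mcm2*, a subunit of the helicase, was at 40.50, 36.13 and 34.28 FPKM, at 7.86, 7.41 and 13.77 FPKM and at 22.45, 26.34 and 28.19 FPKM. P1d replicate 3 stood above the other P1d hearts for *Mcm2*, but well below any heart of the other stages. The *Mcm2* difference between P7d and E18.5d was close to the threshold (log2 change -0.51, limma adjusted p = 0.0487), and after rescaling by the median of ratios neither *Mcm2* nor *Cdc6* passed (adjusted p = 0.193 and 0.0732). The *Mcm2* call was lost without any 1 of the E18.5d or P7d hearts (0.0627 to 0.144), and also with equal-sum scaling, quantile normalization, *Xist* as a covariate, a pseudocount of 0.1, no filter or no trend (0.056 to 0.162). The *Cdc6* call was lost without E18.5d replicate 1 or 3 or any 1 P7d heart (0.0526 to 0.0874), and also with quantile normalization, a pseudocount of 0.1 or no filter (0.0629 to 0.0917). *Mcm3* and *Mcm5* had means of 47.4 and 26.1 FPKM at E18.5d, 14 and 7.25 FPKM at P1d, then 31.9 and 18.6 FPKM at P7d, and did not pass between E18.5d and P7d (adjusted p = 0.0622 and 0.0630). In the 7 licensing members, 5 were lower at P7d and none was higher, beside 36.9% and 12.5% of all genes tested. *Mcm7*, the subunit missing from the set, recovered less, with a P7d to P1d ratio of 1.37, while *Orc3*, a subunit of the origin recognition complex, was at 30.1, 30.8 and 23.8 FPKM.

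Among the 7 origin firing and replisome members, *Timeless*, which holds the replisome together at paused forks, returned closest to its fetal level. It was at 8.25, 7.95 and 6.63 FPKM, at 1.59, 1.25 and 2.85 FPKM and at 6.24, 5.78 and 6.94 FPKM, so that P7d and E18.5d overlapped (log2 change -0.23, SE 0.18, limma adjusted p = 0.305). *Clspn*, its partner in the checkpoint at stalled forks, was at 8.78 ± 0.29, 1.42 ± 0.43 and 4.50 ± 0.31 FPKM (SD, n = 3). *Cdc7*, a kinase that fires licensed origins, was at 7.17 ± 0.49, 1.37 ± 0.30 and 3.50 ± 0.27 FPKM. *Cdc45*, part of the active helicase, was at 14.3 ± 1.1, 4.0 ± 1.54 and 8.64 ± 0.80 FPKM. *Clspn* (log2 change -0.83), *Cdc7* (-0.86) and *Cdc45* (-0.67) were lower at P7d than before birth, the last neither after rescaling by the median of ratios (adjusted p = 0.0640) nor without E18.5d replicate 1 or P7d replicate 1 (0.0551 and 0.0561). *Gins4*, in the same helicase complex as *Cdc45*, was at 16.5, 14.9 and 12.8 FPKM, without a dip.

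Of the 9 polymerase and clamp members, 8 were lower at P7d than before birth, beside 36.9% of all genes tested. *Prim1*, the catalytic primase subunit, was at 20.30, 19.89 and 19.63 FPKM, at 3.86, 5.36 and 6.11 FPKM and at 9.05, 10.95 and 10.12 FPKM, and its P7d level was close to 0.5 of the fetal level (log2 change -0.93, SE 0.13, limma adjusted p = 0.000354). *Lig1*, the ligase that joins Okazaki fragments, was at 23.1 ± 0.19, 6.33 ± 1.6 and 13.1 ± 1.70 FPKM. *Pole* and *Pole2*, subunits of the leading-strand polymerase, had P7d to P1d ratios of 2.17 and 2.47. *Rpa1*, which coats single-stranded DNA, had an E18.5d to P1d ratio of 1.58 and a P7d to P1d ratio of 1.24 and was not a member.

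Of the deoxynucleotide and one-carbon enzymes, *Rrm2*, the cell cycle-regulated subunit of ribonucleotide reductase, was at 71.59, 64.00 and 67.91 FPKM, at 12.11, 17.64 and 21.19 FPKM and at 38.50, 37.74 and 44.99 FPKM. *Tyms*, thymidylate synthase, was at 19.3 ± 2.94, 5.58 ± 1.37 and 11.2 ± 2.33 FPKM, and *Tk1*, the cytosolic thymidine kinase, was at 28.6 ± 1.46, 10.4 ± 1.41 and 18.1 ± 0.70 FPKM. *Mthfd2*, a mitochondrial folate enzyme, had a mean of 7.52 FPKM at E18.5d, 1.64 FPKM at P1d, then 3.20 FPKM at P7d. These 4 genes were lower at P7d than before birth (log2 changes -1.03 to -0.63), beside 36.9% of all genes tested. The purine synthesis genes *Paics* and *Impdh2* showed no dip, with P7d to P1d ratios of 0.873 and 0.953.

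Chromatin duplication genes followed. *Uhrf1*, which brings the maintenance methyltransferase to newly copied DNA, was at 39.75, 35.97 and 31.92 FPKM, at 7.00, 6.2 and 9.69 FPKM and at 17.62, 20.04 and 26.38 FPKM. *Dnmt1*, that methyltransferase, was at 43.67, 41.56 and 39.98 FPKM, at 13.29, 13.63 and 17.33 FPKM and at 26.25, 27.75 and 30.51 FPKM. For both genes the 3 stages were fully separated. *Chaf1a* and *Asf1b*, histone chaperones of replicating chromatin, had E18.5d to P1d ratios of 3.70 and 4.68 and the same P7d to P1d ratio of 2.34. All 5 chromatin members were lower at P7d than before birth, beside 36.9% of all genes tested. *Rbbp7* and *Hmgb1*, chromatin proteins that are also used outside S phase, had means of 140 and 242 FPKM at E18.5d, 125 and 215 FPKM at P1d, then 99.3 and 186 FPKM at P7d.

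Of the 7 recombination members, 4 were lower at P7d and none was higher, beside 36.9% and 12.5% of all genes tested. *Brca1*, of homologous recombination, was at 6.42 ± 0.32, 1.37 ± 0.33 and 3.07 ± 0.30 FPKM and *Rad54l*, a DNA translocase of the same pathway, at 6.30 ± 0.39, 1.44 ± 0.30 and 3.64 ± 0.24 FPKM. *Brca1* (log2 change -0.87) and *Rad54l* (-0.65) were lower at P7d than before birth. *Chek2*, a checkpoint kinase, did not pass and its ranges overlapped, with 3.79 to 4.73 FPKM at E18.5d and 3.20 to 4.69 FPKM at P7d. The mismatch repair gene *Msh6* was outside the set, with a P7d to P1d ratio of 1.24.

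The histones were the most highly expressed members. By type, 14 of 17 H2A, 9 of 15 H2B, 10 of 11 H3, 9 of 13 H4 and 2 of 5 H1 genes at this level met the rule. They lie in clusters, with 38 between chr13:21715763-23764406 and 6 between chr3:96219865-96270132, so that 17.0% of the dip genes but 3.82% of all genes at this level are on chromosome 13. The largest dip of the set was that of *Hist2h3c2*, an H3 gene, at 166.3, 184.4 and 154.9 FPKM, at 16, 22.46 and 29.95 FPKM and at 86.22, 133.8 and 133.3 FPKM. Its P1d mean was 7.39 times below E18.5d and 5.17 times below P7d. The H2A genes *Hist1h2ah* and *Hist1h2an* and the H3 gene *Hist1h3g* were also among the 10 largest dips, with P7d to P1d ratios of 3.86, 3.28 and 3.6. The highest levels of the set were histone levels too. *Hist1h2ap*, an H2A gene, was at 1215, 1341 and 957.8 FPKM, at 238.4, 382.8 and 366.6 FPKM and at 675.9, 890.6 and 906.7 FPKM. *Hist1h4m*, an H4 gene, was at 1386, 1130 and 1060 FPKM, at 292.6, 546.7 and 370.4 FPKM and at 760.4, 977.2 and 753.4 FPKM. The H4 genes dipped least in the median, with the smaller ratio at 2.08, against 2.74 in H3, 2.64 in H2A and 2.54 in H2B.

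The 44 histone genes summed to 17402, 16238 and 14050 FPKM at E18.5d, 3407, 5702 and 4633 FPKM at P1d, then 9365, 12302 and 11125 FPKM at P7d. As a share of the FPKM of nuclear protein-coding genes this was 2.79% to 3.34%, 0.691% to 1.08% and 2.06% to 2.68%. Of the 45 histone members, which include *H2afx*, 25 were lower at P7d than before birth and none was higher. Over all genes tested 36.9% were lower and 12.5% higher. After rescaling by the median of ratios 9 of the 45 were lower, beside 20.9% of all genes. Without P7d replicate 1 or without E18.5d replicate 1 the count was 14 or 15, beside 32.0% and 31.8% of all genes. Without P1d replicate 1, the heart lowest in the histones, it was 40, beside 37.1%. *Hist1h2bb* passed (log2 change -0.72, SE 0.19, limma adjusted p = 0.0132; 0.0506 by the median of ratios), while *Hist2h3c2* did not (-0.54, SE 0.22, adjusted p = 0.0685). Histone mRNAs lack a poly(A) tail, and 5 abundant small RNA genes without a tail, among them *Rn7sk*, took 53.3% to 55.6% of the FPKM sum at E18.5d, 55.1% to 62.3% at P1d, then 55.9% to 59.3% at P7d. In each stage the heart with the highest small RNA share was also the heart with the highest histone sum, and the part of this share in the histone values was not tested. Copies of 1 histone type are nearly identical, so how fragments were divided among them is uncertain, and the sum is firmer than a single gene.

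Some histone genes were outside the set. *Hist1h4d*, the most abundant of them, had means of 2365, 1118 and 1651 FPKM, a P7d to P1d ratio of 1.48. *Hist1h1c*, a linker histone gene, had the opposite pattern, with means of 226, 408 and 227 FPKM. It was named after its values were seen.

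**Figure D4:**
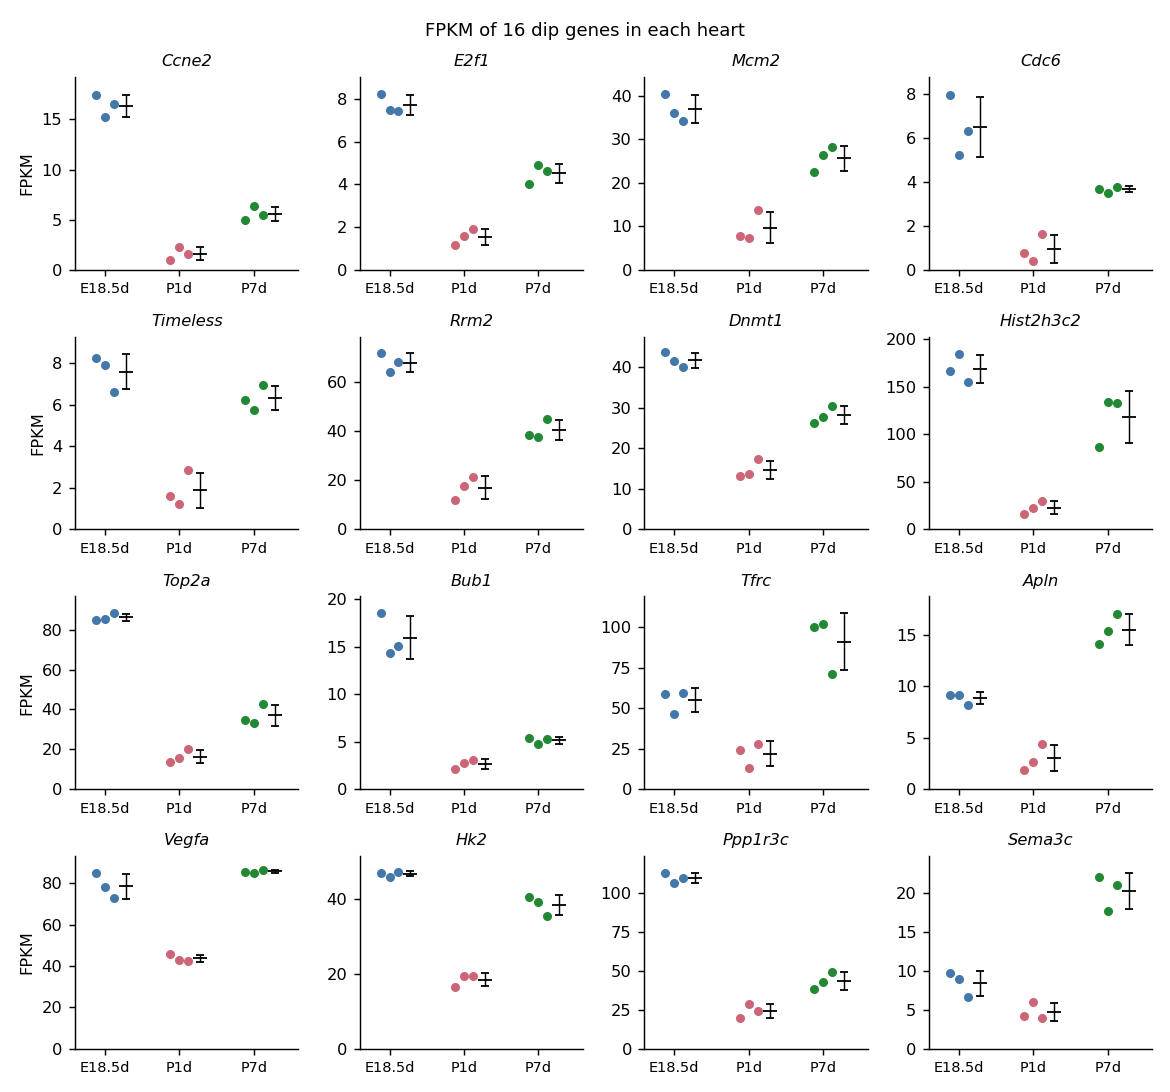
FPKM of 16 dip genes in each heart, with replicates 1 to 3 of a stage from left to right and the mean ± SD (n = 3) in black to the right of each stage. In each panel the 3 P1d hearts lie below the other 6, as the rule required; *Bub1* stays low at P7d, and *Tfrc*, *Apln* and *Sema3c* rise above E18.5d.

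The mitosis genes had the lowest median P7d level relative to E18.5d of the lists, at 0.487. *Top2a*, topoisomerase II alpha, was at 84.67, 85.59 and 88.28 FPKM, at 13.41, 15.60 and 19.98 FPKM and at 34.79, 33.38 and 42.85 FPKM. *Bub1*, a kinase of the spindle checkpoint, was at 18.51, 14.30 and 15.09 FPKM, at 2.11, 2.76 and 3.06 FPKM and at 5.41, 4.76 and 5.26 FPKM. *Bub1* had the largest decrease of the 283 genes between E18.5d and P7d (log2 change -1.46, SE 0.12, limma adjusted p = 1.87e-05). *Ccnf*, encoding cyclin F, came back further, at 10.3 ± 0.66, 1.61 ± 0.38 and 5.27 ± 0.44 FPKM. *Smc2*, a condensin subunit, was at 14.2 ± 1.34, 2.67 ± 0.94 and 6.51 ± 0.28 FPKM, *Spc24*, of the kinetochore, at 13.9 ± 0.58, 3.19 ± 0.18 and 6.97 ± 0.75 FPKM, and *Kif11*, a spindle motor, at 19.1 ± 2.39, 4.26 ± 0.41 and 7.13 ± 1.24 FPKM. All 24 mitosis members were lower at P7d than before birth, beside 36.9% of all genes tested, with a median log2 change of -0.98. The count was 24 under each scaling and with each heart left out in turn. In the whole mitosis list, 48 of 49 genes were lower, with a median of -0.97, so this fall was not particular to the dip genes. *Kpna2*, an importin gene in the same list, missed the rule with a P7d to P1d ratio of 1.52, and *Pttg1*, encoding securin, was highest at P1d, with means of 52.1, 70.5 and 59.6 FPKM.

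**Figure D5:**
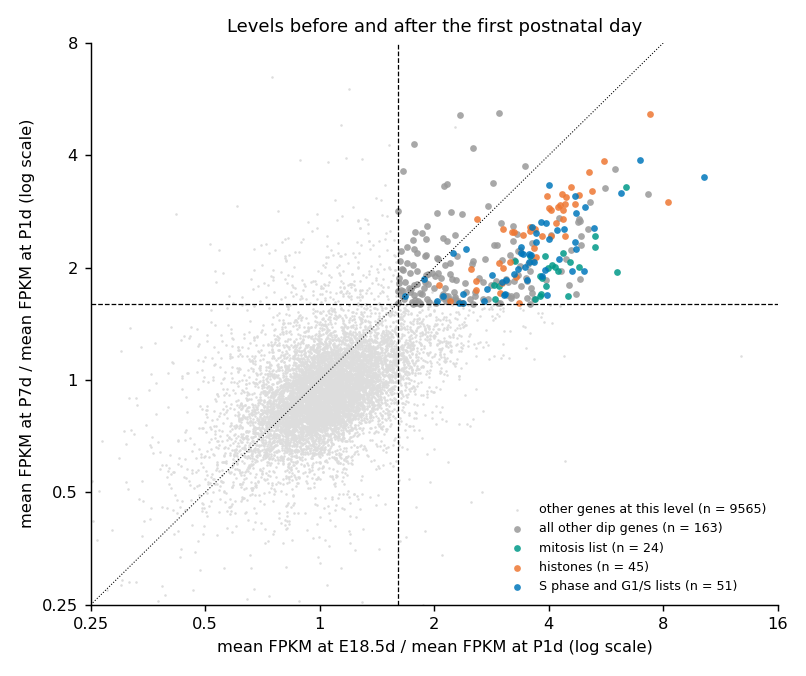
Each point is a gene with means of at least 3 FPKM at E18.5d and P7d, placed by its E18.5d to P1d ratio and its P7d to P1d ratio on log axes; dashed lines mark 1.6, the dotted line marks equal levels at E18.5d and P7d, and 35 of the 9565 other genes lie outside the axes. Most histone, S phase and mitosis members lie below the dotted line, and 52 dip genes had a P7d mean at or above the E18.5d mean.

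Outside the cell cycle lists and the histones, 163 dip genes remained, of which 149 were in no list. Between E18.5d and P7d, 76 of the 163 were lower and 16 higher, beside 36.9% and 12.5% of all genes tested. After rescaling by the median of ratios the counts were 53 and 30, beside 20.9% and 21.4%. Many of the lower genes are cell cycle genes that the lists did not hold, so the 163 are not a group without cell cycle genes. *Fam111a*, which encodes a PCNA-binding protease, was at 7.12, 8.16 and 8.18 FPKM, at 1.31, 1.15 and 1.47 FPKM and at 4.50, 4.87 and 5.04 FPKM. *Pclaf*, another PCNA-binding protein, was at 18.2 ± 0.62, 3.77 ± 0.85 and 7.02 ± 0.99 FPKM, and *Arhgap11a*, a GTPase-activating protein, at 17.5 ± 0.90, 4.88 ± 0.48 and 7.82 ± 1.34 FPKM. Each of these 3 genes was lower at P7d than before birth (log2 changes -0.60, -1.27 and -1.08).

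Some metabolic genes also dipped. *Hk2*, the insulin-responsive hexokinase, was at 46.97, 45.94 and 47.31 FPKM, at 16.42, 19.44 and 19.47 FPKM and at 40.65, 39.27 and 35.53 FPKM, while *Hk1*, the housekeeping hexokinase, declined without a dip (means of 165, 116 and 103 FPKM). *Hk2* was slightly lower at P7d than before birth (log2 change -0.28, SE 0.08, limma adjusted p = 0.0156), but not after rescaling by the median of ratios (adjusted p = 0.352) or without P7d replicate 3 (0.0602). *Ppp1r3c*, a glycogen-targeting subunit of protein phosphatase 1, was at 112.8, 106.2 and 109.2 FPKM, at 19.72, 28.92 and 23.97 FPKM and at 38.07, 42.65 and 49.48 FPKM, and remained far below its fetal level (log2 change -1.32, SE 0.13, adjusted p = 4.94e-05). *G0s2*, an inhibitor of the lipase that opens triglyceride stores, was at 42.2 ± 3.57, 14.4 ± 2.07 and 23 ± 0.44 FPKM. *Txnip*, an inhibitor of glucose uptake, had the reverse pattern, with means of 127 FPKM at E18.5d, 796 FPKM at P1d, then 383 FPKM at P7d. *Pfkl*, a phosphofructokinase, *P4ha1*, a collagen prolyl hydroxylase subunit, *Serpinh1*, the collagen chaperone, and *Ankrd37*, known as a hypoxia-induced gene, were named after their values were seen. *Pfkl* was at 64.98 to 68.61, 19.48 to 22.45 and 42.03 to 44.38 FPKM, and *P4ha1* at 34.62 to 37.39, 7.86 to 8.87 and 15.10 to 18.01 FPKM. *Serpinh1* was at 365.1 to 381.5, 151.7 to 176.3 and 283.3 to 286.0 FPKM, and *Ankrd37* at 5.22 to 5.66, 0.81 to 1.06 and 2.67 to 3.96 FPKM. In these 4 genes each stage was clear of the other stages, and P7d was lower than E18.5d (log2 changes -1.09 to -0.39).

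In each of the 4 members of the angiogenic endothelium list the P7d mean was above the E18.5d mean. *Apln*, the ligand of the apelin receptor made by sprouting endothelium, was at 9.13, 9.20 and 8.18 FPKM, at 1.90, 2.68 and 4.38 FPKM and at 14.10, 15.35 and 17.07 FPKM. It was higher at P7d than before birth (log2 change 0.74, SE 0.19, limma adjusted p = 0.00904). *Vegfa*, the main endothelial growth factor, was at 84.71, 77.89 and 72.60 FPKM, at 45.58, 42.90 and 42.41 FPKM and at 85.57, 85.07 and 86.34 FPKM. *Dll4*, the Notch ligand of tip cells, was at 7.64 ± 0.29, 4.36 ± 0.67 and 8.86 ± 0.12 FPKM, and *Cxcr4*, a chemokine receptor, at 6.76 ± 1.06, 3.21 ± 0.61 and 7.69 ± 0.84 FPKM. *Vegfa*, *Dll4* and *Cxcr4* did not pass between E18.5d and P7d (adjusted p = 0.120, 0.106 and 0.328). *Kdr*, the receptor of *Vegfa*, had a shallower dip and was not a member, with means of 62.0, 48.0 and 83.8 FPKM. The 10 endothelial marker genes held no dip gene, and their sum was 536 to 573 FPKM at E18.5d, 596 to 663 FPKM at P1d, then 686 to 695 FPKM at P7d.

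The 16 genes that were higher at P7d than before birth were led by *Sema3c*, a semaphorin of outflow tract development, at 9.70, 8.94 and 6.63 FPKM, at 4.24, 6.08 and 3.93 FPKM and at 22.15, 17.70 and 21.12 FPKM (log2 change 1.19, SE 0.16, limma adjusted p = 0.000357). *Prnd*, the gene of the prion-like protein doppel, was at 6.87 ± 0.73, 2.94 ± 1.34 and 15.0 ± 2.05 FPKM (log2 change 1.02). *Vwa1*, a matrix protein with a von Willebrand factor A domain, was at 3.44 ± 0.16, 2.08 ± 0.45 and 7.53 ± 0.53 FPKM, and *Tppp3*, a tubulin-binding protein, at 22.1 ± 2.06, 13.8 ± 1.61 and 39.1 ± 1.83 FPKM. *Tfrc*, the transferrin receptor through which cells take up iron, was at 58.55, 46.31 and 59.52 FPKM, at 24.03, 13.11 and 28.06 FPKM and at 100.3, 102.0 and 71.10 FPKM. *Tfrc* passed (log2 change 0.71, SE 0.25, limma adjusted p = 0.0381), but not with *Xist* as a covariate (0.0512), equal-sum scaling (0.0726) or no filter (0.0914). The *Tfrc* call was also lost without any 1 of the E18.5d hearts, P7d replicate 1 or P7d replicate 2 (0.0611 to 0.119). *Ulbp1*, a ligand of an activating receptor of natural killer cells, returned to its fetal level, with ranges of 4.97 to 6.51, 1.44 to 1.98 and 6.10 to 7.11 FPKM (log2 change 0.11, adjusted p = 0.473).

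Of the cytoskeletal members, *Lmnb1* and *Lmnb2*, the B-type lamins, were at 52.7 ± 0.90 and 9.49 ± 0.24 FPKM at E18.5d, 17.0 ± 2.6 and 2.83 ± 0.71 FPKM at P1d, then 28.6 ± 3.78 and 6.30 ± 0.88 FPKM at P7d. *Nes*, the intermediate filament nestin, was at 15.12, 14.82 and 16.24 FPKM, at 6.73, 6.25 and 11.17 FPKM and at 21.10, 18.13 and 23.15 FPKM, with P7d above E18.5d in every heart but short of the threshold (log2 change 0.41, adjusted p = 0.0807). *Tubb6*, a beta tubulin, was at 47.5 ± 1.17, 28.7 ± 1.42 and 49.5 ± 5.10 FPKM. *Actb*, cytoplasmic actin, had a shallow dip of 1.34 and 1.39 times, and *Acta2*, smooth muscle actin, had none. The remaining list members were *Polr3d*, a subunit of RNA polymerase III, at 11.4 ± 0.71, 5.40 ± 0.42 and 9.17 ± 0.68 FPKM, and *Pycr1*, of proline synthesis, at 5.41 ± 1.5, 1.68 ± 0.60 and 4.35 ± 1.54 FPKM.

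At the edge of the rule, the smaller ratio was 1.601 in *Mrm1*, *Slx4* and *Arhgap11a* and 1.599, 1.596 and 1.595 in *Zfp597*, *Nup210* and *Ccnd2*, which were outside. *Slx4*, a scaffold of DNA repair nucleases, was at 20.1, 7.93 and 12.7 FPKM, and *Nup210*, a nucleoporin, at 5.29, 3.20 and 5.11 FPKM.

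The P1d hearts were not alike. P1d replicate 3 was the highest of its stage in 148 of the 283 dip genes (52.3%) and P1d replicate 1 in 28 (9.89%), against 32.3% and 25% of all genes at this level. The order was strongest in the 28 members of the 3 replication lists and the chromatin list, where replicate 3 was highest in 25 (89.3%). Histones followed another order, with P1d replicate 2 highest in 37 of 44 genes (84.1%). At P7d replicate 3 was the highest in 161 dip genes (56.9%), but replicate 2 in 35 of the 44 histones (79.5%). The labels give no batch that separates these hearts.

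Marker genes of 10 cell types were examined beside the set. None of these marker genes was a dip gene. Cardiomyocyte markers, 10 of 10 detected, summed to 23210 to 24210 FPKM at E18.5d, 27860 to 30280 at P1d, then 30060 to 31310 at P7d. The fibroblast markers moved in part with the set, since 8 of 10 had their lowest mean at P1d and their sum was 2154 to 2256, 1800 to 2390 and 2908 to 3001 FPKM, and their part in the dip was not tested. Macrophage markers summed to 69.1 to 85.4, 86.1 to 131.7 and 75.4 to 81.3 FPKM, and erythroid markers to 4492 to 12490, 7067 to 13860 and 4749 to 5940 FPKM. Of the thymus and lymphocyte markers, 9 of 10 were under 1 FPKM in every heart. The lung markers summed to up to 252.6 FPKM in an E18.5d heart and 493.0 FPKM in a P1d heart but at most 0.61 FPKM at P7d. Of the 10 lung markers, 6 were under 1 FPKM in every heart. The highest means were those of *Scgb3a1* (49.98 FPKM at E18.5d and 91.26 at P1d) and *Scgb3a2* (60.43 and 59.84). The depth estimated from the low values was 24.25 to 45.25 times 1e6 fragments per heart, and the lowest P1d heart of the median dip gene then held about 321 fragments. *Hist1h2ao* was the 1 dip gene with under 10 estimated fragments in a P1d heart.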

How the data were processed

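RNA sequencing of 9 mouse hearts was used, 3 each at E18.5d, P1d and P7d, grouped as labelled. The authors made libraries from total RNA with the NEBNext Ultra kit, and the submitters' processing notes name STAR and GRCm38/mm10. The counting tool, annotation and strand setting were not given in the sources used here. The authors deposited FPKM values with 2 decimals for 48820 rows. FPKM are not counts: most low values (89.4% to 92.7% within 0.15) were whole multiples of 1 fragment once a length offset was fitted, which gave the depth.

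The members and lists were chosen with earlier results of these data known. The 13618 rows with a mean of at least 1 FPKM were fitted on log2(FPKM + 1), a scale that understates changes of low genes, with limma 3.58.1 in R 4.3.3 (trend, all 9 hearts, Benjamini-Hochberg, threshold 0.05). The fit was tested on simulated data. Python 3.11.15 with pandas 2.3.3 was used for the rest. The alternatives were other limits of the rule, another pseudocount, other filters, 3 rescalings, the fit without trend or with the compared stages alone, a replicate block, *Xist* as a covariate and leaving out each heart. P-values rest on the spread between hearts of a stage, pooled over the 3 stages, P1d included, and drawn by limma toward that of genes of similar level.

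Genes named in the text were the 10 largest dips by the smaller ratio, the 4 largest dips of each list, the 6 largest changes each way at P7d that passed without overlap, the 5 highest levels, 3 genes on each side of the ratio limit and the 2 highest non-members of each list; others are marked as named after their values were seen. Symbols were matched to GENCODE M21 and to RefSeq promoters (229 of 283). Some items of the lists are not reported here.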

Additional observations from a re-analysis of the deposited data

How the results depend on the processing

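The rule gave 127 genes with a ratio of at least 2 and 117 with means of at least 10 FPKM. Under the other rule settings and scalings it gave 250 to 424 genes, and 260 to 321 with 1 heart left out. Of the 283 dip genes, 249 still met the rule without P7d replicate 3 and 243 without P1d replicate 1. For P7d against E18.5d, the count of lower dip genes was 118 to 179 in the alternatives that kept all 9 hearts and the threshold alone. It was 188 with the compared stages alone in the fit, and 135 to 183 with 1 heart left out. The count of higher genes was 30 after rescaling by the median of ratios, 29 after quantile normalization and 10 to 20 with 1 heart left out (10 without E18.5d replicate 2). With a log2 change of at least 1 required as well, 22 were lower and 2 higher. With the replicate block, 173 were lower and 18 higher; same-numbered hearts did not deviate together (correlations -0.0546 to 0.112), so the numbers did not pair the hearts. Of the named dip genes, the sign changed in 4 that had not passed: *Chek2* was at 0.048 after the median of ratios, at 0.063 after quantile normalization and at -0.204 to 0.015 with 1 heart left out (highest without P7d replicate 3), *Mrm1* at 0.044 and 0.040 under those scalings, *Ulbp1* at -0.00150 (without E18.5d replicate 2) to 0.164 and *Tubb6* at -0.00231 (without P7d replicate 3) to 0.138. The causes were not tested. With 3 hearts a stage, sex and stage partly confounded and no counts, small differences between E18.5d and P7d could not be resolved.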

Other observations

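A further 14 rows met the numbers of the rule but carried no usable symbol or a symbol that starts with Gm. In GENCODE M21 the rows without a symbol include *Nr6a1os*, an antisense transcript of *Nr6a1*, at 3.74 to 4.12 FPKM at E18.5d, 1.18 to 2.80 FPKM at P1d and 3.04 to 4.42 FPKM at P7d. They also include *B130055M24Rik*, at 5.03 to 5.48, 1.13 to 1.51 and 2.65 to 3.32 FPKM. The row of *Gm10197* was listed at 0 in the 3 P1d hearts, at 53.16 to 71.07 FPKM at E18.5d and at 1.75 to 18.86 FPKM at P7d.

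Among the dip genes, 12 carry a Zfp, Zscan or Zbtb symbol, names given to zinc finger genes, and 4 of them were lower and 1 higher at P7d than at E18.5d by limma, beside 36.9% and 12.5% of all genes tested. The share of such symbols among all genes at this level was not counted, so the 12 are not shown to mark the set. *Zfp367* was the most highly expressed of the 12, at 37.89 to 43.48 FPKM at E18.5d, 14 to 21.29 FPKM at P1d and 43.08 to 52.45 FPKM at P7d. The mitochondrially encoded *ND6* also met the rule, with 353.8 to 468.2, 201.9 to 327.2 and 468.9 to 544.5 FPKM. These genes were picked after their values were seen.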
